A study of Mus musculus with 14 samples.

Results

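The miRs of the miR-297, miR-466, miR-467 and miR-669 families are small RNAs that come from repeats, most of them cut from hairpins inside a single gene, Sfmbt2. They were chosen by name: every mouse feature of the array whose name held miR-297, miR-466, miR-467 or miR-669 was taken, which gave 71 of the 1037 mouse miRs on the array. Of the 71, 5 belonged to the miR-297 family, 25 to miR-466, 13 to miR-467 and 28 to miR-669.

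The miRs were measured in the left ventricle (LV) of 14 male C57Bl/6 mice aged 3 to 4 months, with 1 single-channel array per mouse. Sham surgery (labelled Control) was given to 4 mice. Transverse aortic constriction (TAC), which narrows the aorta and overloads the LV, was given to 10 mice, which had heart failure (HF) 6 to 8 weeks later. Of these, 5 were taken at that point (HF), and 5 carried a pellet under the skin that released estradiol (E2) over 10 days, at a daily 0.03 mg/kg (labelled HF-ESTR, here HF+E2). No group was a TAC group treated with a pellet without E2, and no sham mouse received E2, so the HF+E2 mice also differed from the HF mice by the pellet and by the additional days. LV tissue was taken whole, so that fewer cells of a type and less RNA per cell cannot be told apart.

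miRs are cut from hairpin precursors, and each hairpin can give a miR from its 5p and its 3p arm. In the older naming an asterisk marks the arm found less often. The seed, bases 2 to 8, is the main part of a miR that pairs with target mRNAs. Sfmbt2 codes for a Polycomb group protein, and in rodents 1 of its introns holds a long array of related hairpins. The cluster is best known from placenta, where Sfmbt2 is expressed from the paternal copy, and from embryonic stem cells. In the RefSeq gene table (GRCm38.p6) 71 of the 81 hairpin genes of the 4 families lay inside Sfmbt2 and 10 lay elsewhere. By name, 56 of the 71 measured miRs matched hairpins inside Sfmbt2 only, 8 matched hairpins elsewhere only, 5 matched both and 2 matched none.

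A mature sequence was at hand for 44 of the 71 miRs, 43 from the deposited table and 1 (miR-466k) from RefSeq. Each of the 44 was classed by which of 2 kinds of dinucleotide it held more of, also where its longest alternating stretch was as short as 3 bases. In 20 the dinucleotides CA and AC outnumbered UG and GU (called CA-rich), and in 24 the reverse held (UG-rich). The following are the miRs on which the results below turn, with the seed in capitals. The first 5 had some of the strongest signals, the next 3 share the seed UAUACAU and the 3 after them share GUGUGUG.
miR-669c*: uACACACAcacacacaaguaaa
miR-467f: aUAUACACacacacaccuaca
miR-669p*: cAUAACAUacacacacacacguau
miR-466f-3p: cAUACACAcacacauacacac
miR-466i-3p: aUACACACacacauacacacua
miR-467b*: aUAUACAUacacacaccaacac
miR-467c*: aUAUACAUacacacaccuauac
miR-669d-2*: aUAUACAUacacacccauauac
miR-466i-5p: uGUGUGUGugugugugugug
miR-466d-5p: uGUGUGUGcguacauguacaug
miR-466k: uGUGUGUGuacauguacauguga
miR-297a: aUGUAUGUgugcaugugcaugu
miR-297b-5p: aUGUAUGUgugcaugaacaugu
miR-669b: aGUUUUGUgugcaugugcaugu
The last 3 were dim, and the final pair is shown because it was the pair that passed the test between HF and sham. Over the 44 sequences there were 31 seeds, of which 9 were shared by more than 1 miR, covering 22 miRs. Sequences this close can bind each other's probes, so that values of near-identical miRs are not independent measurements.

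Of the 71 miRs, 46 lay above the authors' detection threshold on all 14 arrays, 14 on some arrays and 11 on none. Each array has its own threshold, derived from negative control probes that match no mouse RNA. It lay between 4.79 and 5.85 in scaled log2 units (mean 5.49). Of the 966 other mouse miRs, 408 were above it on all arrays and 329 on none. The share above it on all arrays was 64.8% of the family miRs and 42.2% of the other mouse miRs. By family, the miRs above it on all arrays were 3 of 5 of miR-297, 15 of 25 of miR-466, 12 of 13 of miR-467 and 16 of 28 of miR-669.

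The number of family miRs above the threshold did not separate the groups. It was 56, 49, 51 and 52 on the sham arrays, 55, 46, 50, 57 and 54 on the HF arrays and 52, 52, 58, 50 and 46 on the HF+E2 arrays. The ranges overlapped, with group means of 52.0 ± 2.9 (SD, n = 4), 52.4 ± 4.4 (SD, n = 5) and 51.6 ± 4.3 (SD, n = 5). Against a stricter bound, the brightest of the 28 negative controls of the same array, 32 of the 71 were above it on all 14 arrays.

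The negative controls did differ between the groups after scaling. Before scaling, their median log2 difference was 0.04 for HF against sham and 0.14 for HF+E2 against HF. Their mean scaled signal was 4.32, 4.78, 4.68 and 4.79 on the sham arrays, 3.63, 4.32, 3.76, 3.83 and 3.74 on the HF arrays and 4.43, 4.68, 4.70, 4.71 and 4.60 on the HF+E2 arrays. On every HF array they were below all sham and HF+E2 arrays, though HF 2 and sham 1 were both at 4.32 when rounded. The median family miR lay 2.17 log2 units above the mean negative control in the sham mice, and by 2.71 and 1.94 units in the HF and HF+E2 mice. For the other mouse miRs the corresponding medians were 1.08, 1.48 and 1.09. Above the brightest negative control, the median family miR lay by only 0.41, 0.89 and 0.33.

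**Figure D1:**
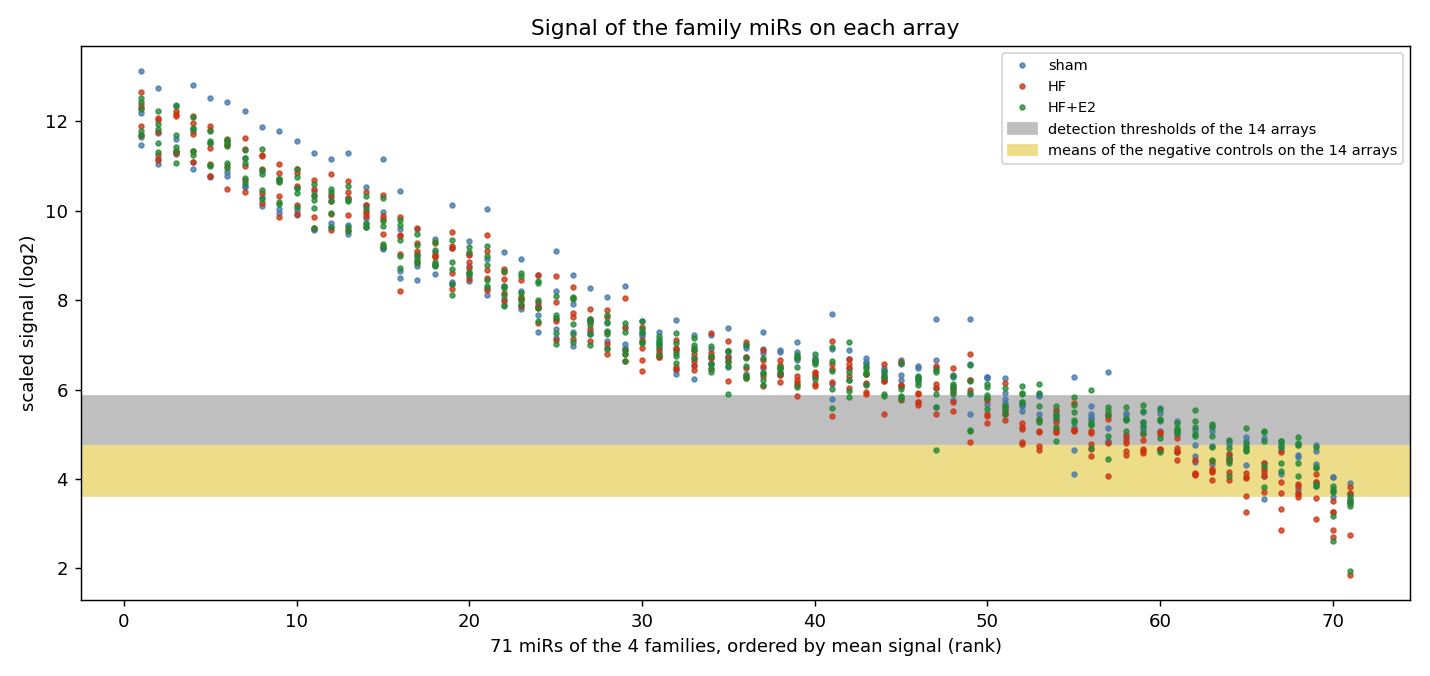
Scaled log2 signal of each of the 71 family miRs on each of the 14 arrays (points, coloured by group), ordered along the horizontal axis by mean signal. The grey band spans the arrays' detection thresholds (4.79 to 5.85) and the yellow band the means of their negative controls; the groups lie on top of each other at the bright end, and the 11 miRs above the threshold on no array reach into or below the yellow band.

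The strongest signal came from miR-669c*, the asterisk arm of a hairpin inside Sfmbt2. Its scaled log2 signal was 13.12, 11.47, 12.18 and 11.64 in the sham mice, 12.66, 11.68, 11.89, 12.37 and 12.30 in the HF mice and 12.42, 12.28, 12.52, 11.78 and 11.70 in the HF+E2 mice. The groups overlapped, and the sham mice alone spanned the values of both other groups. Its intensity before scaling averaged 4075, 6595 and 4471 in the 3 groups, against a highest family spot of 8930 and saturation from 65000, so no family miR was saturated.

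The other 9 of the 10 brightest were miR-467f, miR-466i-5p, miR-669p*, miR-466f-3p, miR-466h-3p, miR-466i-3p, the shared feature of miR-669a-3p and miR-669o-3p, miR-467b* and miR-669f-3p, with means from 11.70 down to 10.50. All of these but miR-466i-5p were CA-rich. miR-467f and both arms of the miR-466i hairpin have their hairpins outside Sfmbt2. The brightest miR-297 was miR-297a, at only 6.75, and no miR-297 lay 2 log2 units or more above the mean threshold. The order of signals is not an order of abundance, because probes differ in how strongly they bind.

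Signal went with the length of the alternating run in the miR. Among the 20 CA-rich miRs, the longest stretch of strictly alternating C and A was 6 to 15 bases. The 10 with a stretch of 9 bases or more had a median signal of 11.17 (7.73 to 12.14), and the 10 with 6 to 8 bases a median of 8.83 (6.42 to 10.54). Across these 20 miRs the run length and the mean signal had a Pearson r of 0.84 and a Spearman rho of 0.90. miRs are not independent here, since they share sequence and arrays, so these are descriptions. Among the 24 UG-rich miRs, the stretch of alternating U and G ran from 3 to 20 bases, with a weaker relation (r = 0.69, rho = 0.42). That r included miR-466i-5p, whose 20 bases are all alternating U and G.

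Some miRs that share a seed differed widely in signal, and others little. miR-466i-5p, miR-466d-5p and miR-466k share the seed GUGUGUG, and their mean signals were 11.68, 6.76 and 5.83. miR-467b*, miR-467c* and miR-669d-2* share UAUACAU, and stood at 10.54, 10.19 and 6.42. The alternating C and A stretch was 8, 8 and 6 bases in these 3. In the trio with GUGUGUG the alternating U and G stretch was 20, 8 and 9 bases. Closer in signal were miR-467h and miR-467e with UAAGUGU (6.18 to 6.49), miR-297a and miR-297b-5p with UGUAUGU (6.11 to 6.75) and miR-669f-3p and miR-467a* with AUAUACA (9.74 to 10.50).

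**Figure D2:**
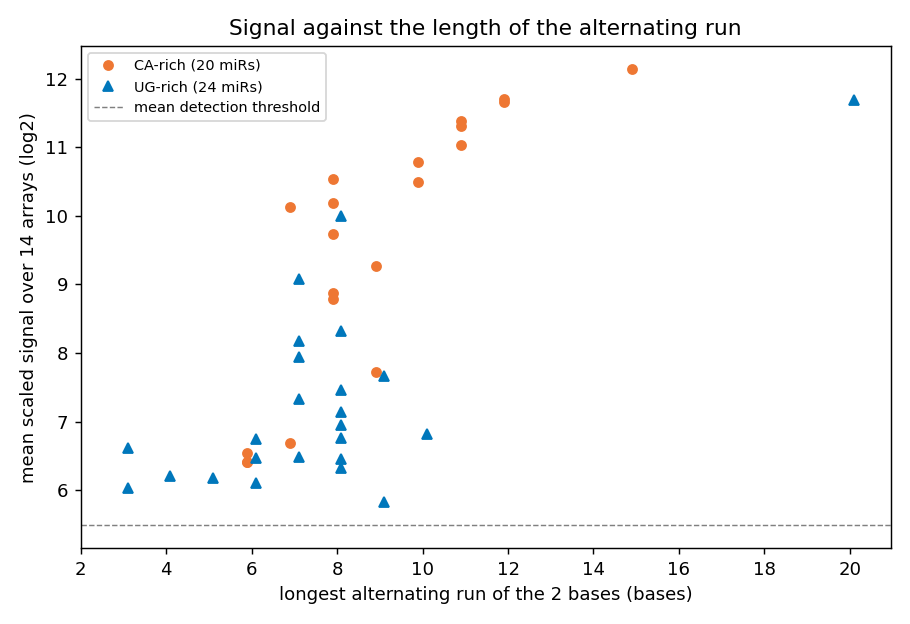
Mean scaled log2 signal over the 14 arrays (vertical axis) against the longest alternating run, in bases (horizontal axis), for the 44 family miRs with a sequence, drawn as orange circles for 20 CA-rich and blue triangles for 24 UG-rich miRs, which are set slightly apart sideways. The CA-rich miRs climb from 6.42 at 6 bases to 12.14 at 15 bases, and the dashed line is the mean detection threshold of 5.49.

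The 26 bright family miRs, those with a mean over 2 log2 units above the mean threshold, varied widely between mice of the same group, and did so together. By family they were 11 of miR-466, 9 of miR-669 and 6 of miR-467. Their median signal was 11.15, 9.53, 10.20 and 9.61 in the sham mice, 10.50, 9.57, 9.88, 10.27 and 10.08 in the HF mice and 10.22, 10.00, 10.39, 9.63 and 9.58 in the HF+E2 mice. Sham 1 stood apart: all 26 were highest there among the sham mice. In HF, 23 of the 26 were highest in HF 1 and 23 were lowest in HF 2. In HF+E2, 21 were highest in HF+E2 3, and all 26 were below their group mean in HF+E2 4 and HF+E2 5.

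The mean deviation of the 26 from their own group means ran from 0.95 in sham 1 to -0.54 in sham 2, and from 0.45 to -0.52 within HF. Their within-group SD had a median of 0.53 log2 units, against 0.25 for the 274 other mouse miRs that were as far above the threshold. All 26 were above that 0.25. Without sham 1 the medians were 0.40 and 0.24. The SD between the 3 spots of a miR on an array had a median of 0.12 for the 26 and 0.10 for the 274. It covers spots within an array only, and with 1 array per mouse the variation of labelling and hybridization cannot be told apart from that between mice.

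Each bright family miR was then set against the mean of the other 25, as deviations from the group means over the 14 arrays. The Pearson r had a median of 0.97 (0.68 to 0.99) and the Spearman rho a median of 0.91. For the 274 other miRs the median r with the family mean was -0.38 and the median rho -0.41. Without sham 1 and sham 2, the arrays farthest from the median deviation, the median r was 0.95 for the 26 and -0.25 for the 274. The points share arrays, scaling and, for the family, repeat sequence, so the values are descriptions with no test. Without scaling, the median within-group SD was 0.71 for the 26 and 0.35 for the 274. Sham 1 was then still the highest sham array, at a mean deviation of 1.19, but the order changed in the other groups. HF+E2 1 became the highest of its group, at 0.97 against 0.18 after scaling, with HF+E2 3 at 0.35. HF 3 became the lowest HF array at -0.52, and HF 4 and HF 1 were highest at 0.44 and 0.43. Array labels hold a number of unstated meaning after their letter, which was the same on all arrays except HF+E2 1 and HF 2. Before scaling, the mean intensity of the negative controls was highest on these arrays, at 40.8 and 37.3. On the other arrays it was at most 27.3. The part of this label difference in the values of HF+E2 1 and HF 2 was not tested.

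miRs from hairpins outside Sfmbt2 varied with those from inside. The 17 bright miRs from inside Sfmbt2 had correlations of 0.77 to 0.99 with the other bright family miRs. The 6 from elsewhere (miR-467f, miR-466i-5p, miR-466i-3p, miR-669n, miR-466j and miR-467g) had correlations of 0.68 to 0.97. The lowest of them was miR-466i-5p. Among 299 other bright mouse miRs of any name, the 2 whose deviations were most like those of miR-466i-5p were miR-574-5p (r = 0.97) and miR-1187 (r = 0.92), chosen here after their values were seen. Both hold long runs of alternating U and G, of 13 and 11 bases.

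Such runs were rare outside the families. A run of 7 or more alternating C and A or U and G was present in 34 of the 44 family miRs with a sequence and in 8 of the 477 other tested miRs. Of those 8, miR-574-5p, miR-574-3p, miR-1187 and miR-3082-5p were bright, with correlations of 0.77, 0.61, 0.85 and 0.93 with the mean deviation of the bright family miRs. miRs without a run also followed the family. The bright mouse miR outside the families with the highest correlation was miR-3095-3p (r = 0.97), whose longest run was 4 bases. Whether the array signal of these miRs reflects 1 RNA or several with like repeats was not tested.

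**Figure D3:**
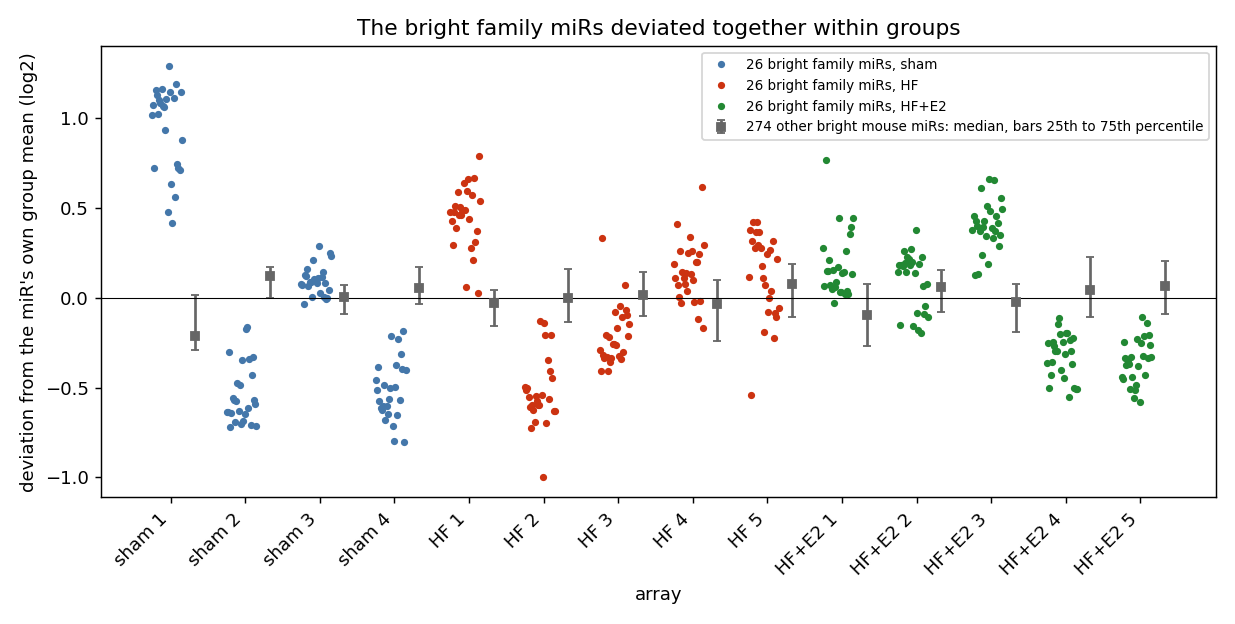
Deviation from the miR's own group mean, in log2 units (vertical axis), on each array (horizontal axis) for the 26 bright family miRs (coloured points, 1 per miR). Grey squares with bars give the median and the 25th to 75th percentiles of 274 other bright mouse miRs. The family points move as 1 cloud, at a mean of 0.95 in sham 1 and -0.52 in HF 2. The grey medians are lowest in sham 1 (-0.21) and highest in sham 2 (0.12), of opposite sign to the family on these arrays.

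HF was compared with sham over the 520 mouse miRs of the deposited table, which hold 43 of the 71 family miRs. Each array label begins with a code number of unstated meaning. All sham arrays shared a code number that no HF or HF+E2 array had. Differences of either group from sham therefore cannot be told apart from differences between code numbers. The same holds for differences from sham in the negative controls and the scaling. A miR was called where limma's adjusted p (Benjamini-Hochberg) was below 0.05 and the log2 fold change was above 0.5 in size. In HF, 2 of the 43 fell and 0 rose, whereas 26.7% of the 520 tested miRs were called and 18.3% were called lower. The median log2 fold change was -0.10 over the 43, or 0.18 without sham 1, and -0.13 over the 520. At an unadjusted limma p below 0.05 there were 5 of the 43 and 220 of the 520. The methods' t-test with Benjamini-Hochberg adjustment called 2 of the 43 and 105 of the 520.

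None of the 23 bright family miRs that were tested was called, and their log2 fold changes ran from -0.20 to 0.23 with a lowest adjusted p of 0.499 (limma). Values were above 0 for 8 and below 0 for 15. miR-669c* had a log2 fold change of 0.08 in HF, with an SE of 0.32 and a 95% interval of -0.62 to 0.77 (limma, adjusted p = 0.885). miR-467f stood at -0.02 (SE 0.34) and miR-466i-5p at 0.18 (SE 0.28). Over the 23, the 95% intervals reached from -1.05 to 0.80, so that changes of up to about these sizes could not be told from none. The median SE was 0.34, against 0.16 for the 274 other bright miRs.

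The miRs that fell were miR-669b and miR-297b-5p, both UG-rich, both from inside Sfmbt2 and both dim. miR-669b had scaled signals of 6.73, 6.84, 6.67 and 7.06 in the sham mice, 6.09, 6.21, 6.30, 6.14 and 5.85 in the HF mice and 6.06, 6.49, 6.76, 6.71 and 6.73 in the HF+E2 mice. Every HF value lay below every sham value, and HF+E2 overlapped both. It was 1.63-fold lower in HF mice (log2 fold change -0.71, SE 0.14, limma adjusted p = 0.00365).

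miR-297b-5p had scaled signals of 6.22, 6.24, 6.49 and 6.52 in the sham mice, 5.93, 5.91, 5.71, 5.65 and 5.73 in the HF mice and 6.29, 6.29, 6.17, 6.26 and 6.10 in the HF+E2 mice. Again no HF value reached a sham value. It was 1.5-fold lower in HF mice (log2 fold change -0.58, SE 0.13, limma adjusted p = 0.00782). For both miRs the 2-sided exact permutation test gave p = 0.00794, the smallest that 4 against 5 mice can give. Both had been picked by limma on the same arrays, so this p is not separate support. HF and sham values did not overlap for 2 of the 43 family miRs and for 21.5% of the 520 tested miRs. miR-297a, which shares its seed with miR-297b-5p, was not called, at a log2 fold change of -0.03 (SE 0.19).

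Before scaling, neither of these miRs was lower in HF. Their unscaled log2 differences were 0.075 and 0.19, with mean intensities of 91 in sham and 96 in HF for miR-669b, and 67 and 77 for miR-297b-5p. The scaling constant of an array was taken as the median difference between its scaled and unscaled log2 values. It ran from 0.09 to 0.45 on the sham arrays and from -0.75 to -0.15 on the HF arrays. After scaling, all 28 negative controls were lower in HF, with a median difference of -0.76 (0.04 before scaling). The 11 family miRs above the threshold on no array were also all lower, by a median of 0.65 (0.15 higher before scaling). The 20 dim family miRs above the threshold on all arrays were lower in 20 of 20, with a median difference of -0.21. The part of the background in the fall of miR-669b and miR-297b-5p was not tested. Without scaling the median of all 520 tested miRs moved from -0.13 to 0.66, and the family median from -0.10 to 0.68.

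When all 1037 mouse miRs were put into the fit, 14 of the 71 family miRs were called lower in HF and 0 higher, against 22.1% of all mouse miRs called lower. Of the 14, 5 were above the threshold on no array, 7 on some arrays and 2, the pair already named, on all. None was bright. Among them was miR-669m-3p, at 5.88, 5.44, 5.85 and 5.91 in the sham mice and 5.07, 5.31, 5.05, 4.66 and 4.75 in the HF mice. No value of it was above the brightest negative control of its array.

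The question of the treated group was whether E2 moved the miRs of failing hearts. By code number, HF 1 to HF 4 shared one that no HF+E2 array had. HF 5 shared its code number with HF+E2 1, HF+E2 2 and HF+E2 3, while HF+E2 4 and HF+E2 5 had another. Differences between HF+E2 and HF can therefore be told apart from differences between code numbers only through the arrays that share the code of HF 5. Between HF+E2 and HF, 0 of the 43 family miRs were called by limma, against 12.1% of the 520 tested miRs. That background of 63 calls depended on single arrays: it was 5 without HF 4, 9 without HF+E2 4, 12 without HF 1, 12 without HF+E2 2, 16 without HF+E2 5, 22 without HF 5 and 23 without HF+E2 3. With the code number as a block, 0 of the 520 were called. At an unadjusted limma p below 0.05 there were 3 of the 43 and 137 of the 520. The methods' t-test called 0 of the 43 and 5 of the 520. The median log2 fold change was -0.02 over the 43 and 0.06 over the 520. The 23 bright miRs lay between -0.28 and 0.16, with a lowest adjusted p of 0.538 (limma), and their 95% intervals reached from -0.98 to 0.88. miR-669c* stood at -0.04 (SE 0.28) and miR-467f at 0.11 (SE 0.30).

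The highest values in this comparison were those of miR-297b-5p and miR-669b. miR-297b-5p stood at a log2 fold change of 0.43 with an SE of 0.11 (limma, adjusted p = 0.0295), below the fold required for a call. Its HF+E2 values did not overlap its HF values, which held for 1 of the 43 and for 5.58% of the 520 tested miRs. miR-669b also stood at 0.43 (SE 0.15) with an adjusted p of 0.0643 (limma). It passed both thresholds without HF+E2 1 (log2 fold change 0.56, adjusted p = 0.00787). Unscaled, both differences were -0.18. The negative controls were higher in HF+E2 than in HF for 27 of 28 after scaling, with a median difference of 0.79, and their part in these values was not tested. This comparison and that of HF with sham share the HF mice, so that a low value in HF enters both.

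In the fit of all 1037 mouse miRs, 9 of the 71 were called higher in HF+E2 than in HF, against 28.9% of all mouse miRs. Of the 9, 5 were above the threshold on no array and 4 on some. The largest value was that of miR-466l-3p, above the threshold on no array, at 4.08, 4.43, 4.12, 4.14 and 4.11 in HF and 5.00, 4.95, 5.29, 5.55 and 5.16 in HF+E2. miR-297c, near the threshold, was at 5.25, 5.11, 5.16, 4.77 and 4.82 in HF, at 6.09, 5.72, 5.90, 5.91 and 5.69 in HF+E2 and at 5.64, 5.52, 5.65 and 5.73 in sham.

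Between HF+E2 and sham, 0 of the 43 family miRs were called by limma, against 8.46% of the 520 tested miRs (44 calls, or 29 without HF+E2 5). An unadjusted limma p below 0.05 was found for 2 of the 43 and 133 of the 520. The methods' t-test called 0 of the 43 and 26 of the 520. In the fit of all mouse miRs 0 of 71 were called, against 2.41% of the 1037. Among the 43, the lowest value was that of the shared feature of miR-466a-3p and miR-466e-3p, at 7.28, 6.81, 6.90 and 6.48 in the sham mice and 6.37, 6.37, 6.11, 6.70 and 6.22 in the HF+E2 mice. These values overlapped, and the log2 fold change was -0.51 with an SE of 0.19 (limma, adjusted p = 0.107). The negative controls of these groups had a median difference of 0.02.

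**Figure D4:**
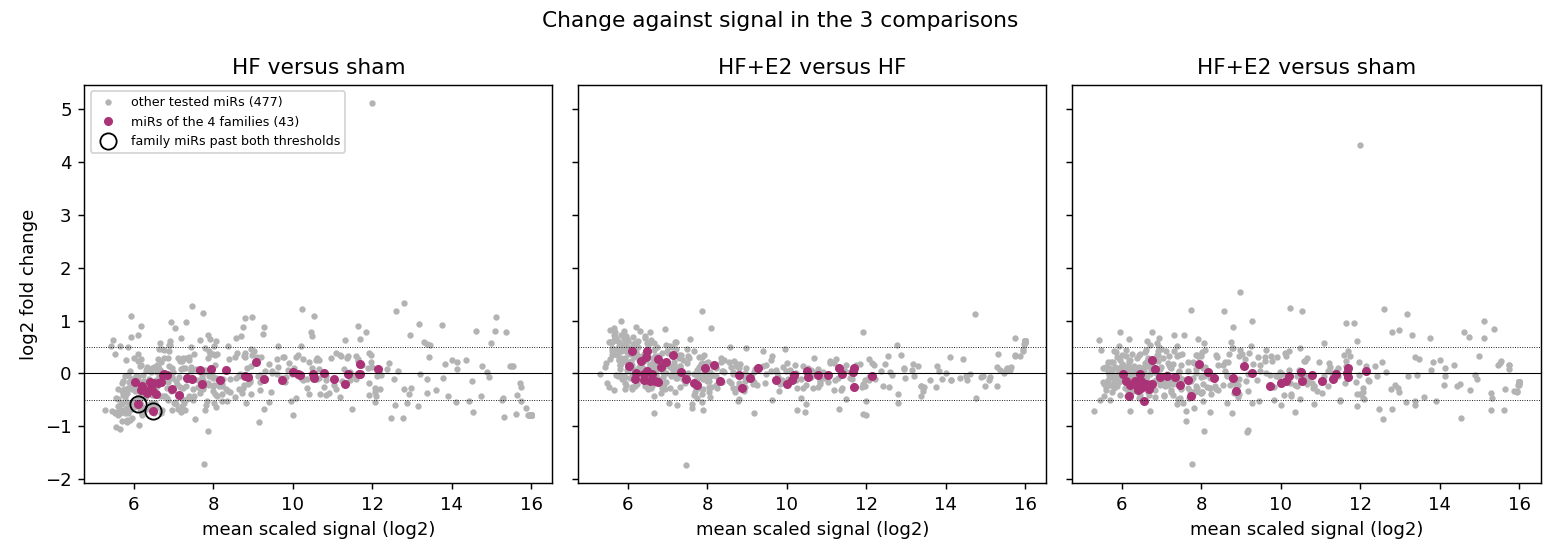
Log2 fold change (vertical axis) against mean scaled log2 signal (horizontal axis) for the 43 tested family miRs (purple) and the 477 other tested miRs (grey) in the 3 comparisons. Dotted lines mark 0.5 in either direction and rings mark miR-669b and miR-297b-5p, the only family miRs past both thresholds; the purple points above a signal of 8 stay between -0.34 and 0.23 in all 3 panels.

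At the lower end, the 3 family miRs whose means were just above the mean threshold were miR-466k, miR-466d-3p and miR-297c, with means of 5.83, 5.71 and 5.50, and they passed the threshold on 11, 8 and 7 arrays. Just below it were miR-669m-3p, the shared feature of miR-466o-5p and miR-466b-5p, and miR-669h-3p, with means of 5.44, 5.29 and 5.28, each above the threshold on 5 arrays. The dimmest miR of each family was miR-297a-5* (3.29), miR-466n-3p (3.43), miR-669j (4.09) and miR-467d (4.23). Each of these 4 was above the threshold on 0 of 14 arrays, with group means below the mean negative control in every group. The other arm of the miR-467d hairpin, miR-467d*, was bright at a mean of 10.17.

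The tissue was checked by miRs of named cell types. The heart muscle miRs (miR-1, miR-133a, both arms of miR-208a and miR-499) were above the threshold on all arrays, at means of 12.48 or more, with miR-1 and miR-133a saturated on all 14. miRs of blood cells were also above the threshold on all arrays. miR-142-5p and miR-223 of white blood cells had means of 10.49 and 11.69. miR-144 and miR-451 of red blood cells had means of 9.27 and 15.93, with miR-451 saturated on 11 of the 14 arrays. The part of blood cells in the family's values was not tested. Of 14 miRs of the embryonic stem cell and trophoblast clusters miR-290 to miR-295 and miR-302, 6 were above the threshold on all arrays and 5 on none, and their highest mean was 6.53. miR-122 of liver and miR-124 and miR-9 of neurons had means of 5.00 to 5.30.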

How the data were processed

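The authors added a dye to the 3' ends of low-molecular weight RNA, which was bound to single-channel arrays with 3 spots per miR. The deposited spot intensities are whole numbers after the authors' background subtraction. Their deposited log2 values are close to the log2 of the mean of the 3 spots plus 1 scaling constant per array, which the table's notes derive from a 20% trimmed mean. They departed from this by up to 0.26 log2 units over the 57 family miRs with intensities above 20 on every array. Dimmer values could depart more: miR-297a-5* in HF+E2 1 was deposited at 1.95, with a mean intensity of 11.7 and a constant of -0.63. The notes count 524 mouse miRs above the threshold, of which 520 were used here. The table's p-values, false discovery rates and fold changes of the authors were not used, and 0 value columns were left unassigned. Numbers of arrays limit the precision.

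The scaled log2 values were fitted with limma 3.58.1 (R 4.3.3), HF against sham on 9 arrays and the HF+E2 contrasts on all 14. p-values were adjusted over all miRs in the fit (Benjamini-Hochberg). In simulated data of the 520 miRs for HF against sham, the test recovered 50 of 50 changes of 2 log2 units, 41 of 50 of 1 unit and 32 of 50 of 0.7 units. It called 3 of 370 miRs without a change. The changes were put into randomly drawn miRs with independent noise. The bright family miRs had larger SEs and varied together, so these rates are not those of the family.

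The miRs and lists were chosen with earlier results of these data known. The miRs named were the 10 with the highest means, the brightest and dimmest of each family, those called in a comparison (the 5 highest and 5 lowest), those above the threshold on all arrays of 1 group and none of another (there was 0), and the 3 nearest the mean threshold on either side. Others were named after their values were seen. Scaling, the set of miRs, the test, blocks and left-out arrays were varied.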

Additional observations from a re-analysis of the deposited data

Results flagged for a closer look

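A single array stood far from the rest of its group for 4 of the 72 combinations of named miR and group examined, close to the 1 in 20 that chance gives. miR-297a-5* was at 1.95 in HF+E2 1, below 3.39 to 3.62 in the other HF+E2 mice. miR-466k was at 5.67 in sham 2, below 6.26 to 6.28 in the other sham mice, and miR-669m-3p at 5.44 in sham 2, below 5.85 to 5.91. miR-669h-3p was at 5.69 in HF 1, above 5.06 to 5.11 in the other HF mice. All 4 lay near or below the mean threshold.

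Probes for rat and human miRs of the same families also gave signal in the mouse LV, above the brightest negative control on all 14 arrays. Their mean scaled log2 signals were 11.27 for rno-miR-466b-1*, 9.53 for rno-miR-466b, 9.48 for rno-miR-466b-2*, 9.08 for hsa-miR-466, 7.95 for rno-miR-466c*, 7.46 for rno-miR-466d and 6.79 for hsa-miR-297. The probes for mml-miR-297, rno-miR-466c and rno-miR-297 were above it on 11, 2 and 1 arrays. As deviations from the group means over the 14 arrays, the 7 correlated with the mean of the 26 bright mouse miRs at 0.80 (hsa-miR-297) to 0.99 (rno-miR-466b-2*), as a description with no test. In sham 1 all 7 were at their highest among the sham mice, with rno-miR-466b-1* at 12.39 against 10.59, 11.35 and 10.72.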

How the results depend on the processing

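Calls of family miRs moved with the scaling. In HF against sham, the 2 called lower became 6 called higher without scaling and 7 called higher with centring on the negative controls, 1 called lower with quantile normalization of the scaled or of the raw values, and 14 called lower (of 71) in the fit of all mouse miRs. miR-669b changed from -0.71 to 0.075 without scaling and 0.084 with negative-control centring, and miR-297b-5p from -0.58 to 0.19 and 0.21. All tested calls numbered 139 (44 higher, 95 lower), against 244 (all higher) without scaling, 265 (all higher) with centring, 77 (46 higher, 31 lower) with quantile normalization of the scaled values, 125 (63 higher, 62 lower) with the negative controls subtracted and 271 (42 higher) in the fit of all mouse miRs. In HF+E2 against HF, the 0 family calls became 3 of 43 lower without scaling, against 170 of 520 tested miRs, all lower. With centring on the negative controls they became 18 of 43 lower, against 330 of 520, all lower. In the fit of all mouse miRs they became 9 of 71 higher, against 300 of 1037 higher and 6 lower. All tested calls in HF+E2 against HF ran from 0 to 330 over the alternatives, against 63. They were 0 with the array code number as a block and 1 with quantile normalization. The methods' t-test gave 5, and a fit of only these 2 groups gave 20. HF+E2 against sham gave 0 family calls under all 21 alternatives. The causes were not tested, except that the fit of all mouse miRs tests more miRs.

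Leaving out 1 array gave 2 to 3 family calls in HF against sham, 0 to 1 in HF+E2 against HF and 0 to 0 in HF+E2 against sham. All tested calls were then 100 to 168, 5 to 87 and 29 to 48. The median log2 fold change of the 43 in HF against sham was 0.18 without sham 1. Adding the 4 family miRs above the threshold on all arrays that the table used did not hold, chosen after seeing the data, left 2, 0 and 0 calls. Mice share only a replicate number between groups: the correlation of their deviations was -0.30 to 0.46 over 13 pairs, and 7 of 14 arrays were closest to one of their own number. With the replicate block the calls were 2, 0 and 0. The 46 miRs above the threshold on all arrays became 30 with a threshold 1 log2 unit higher and stayed 46 to 46 with an array left out. Against the highest negative control the median level of the sham, HF and HF+E2 mice was 0.41, 0.89 and 0.33, and with an array left out it was 1.92 to 2.31, 2.57 to 2.86 and 1.91 to 1.96 above the mean. The log2 fold changes of 13 named miRs changed sign in 170 of 845 values under the alternatives, 4 of them for a called miR. Of the 43 tested, 20 were less than 2 log2 units above the mean threshold, among them both called miRs.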

Other observations

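Labelled spike-in probes differed with the letter in the array's label. The median of 10 such probes was 13.55 to 14.05 on the arrays lettered A or C and 10.59 to 11.70 on those lettered B or D. Each letter pair held mice of all 3 groups. The mean deviation of the 26 bright family miRs was 0.95 and 0.10 on the sham arrays lettered A and C and -0.54 and -0.51 on those lettered B and D. In HF it was 0.45, 0.13 and -0.21 on the arrays lettered A, A and C and -0.52 and 0.15 on those lettered B and D. In HF+E2 it was 0.09 and -0.32 on those lettered C and A and 0.18, 0.40 and -0.35 on those lettered B, D and B. The letters thus divided the sham mice, and in HF and HF+E2 the values of the letter pairs overlapped. The part of the labelling or hybridization in the family's variation was not tested.

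miR-467a, a dim UG-rich miR whose longest alternating stretch is 3 bases, ran against the bright family miRs, with a correlation of -0.79. It was at 6.35, 6.93, 6.73 and 7.01 in the sham mice, lowest in the mouse where the bright miRs were highest. The mean negative controls of these arrays, at 4.32, 4.78, 4.68 and 4.79, had the same order. Of the 274 other bright mouse miRs, 208 also had a correlation below 0, the lowest at -0.88. The part of the background in the values of miR-467a was not tested. miR-669d, also dim, had a within-group SD of 0.14 and miR-297b-5p one of 0.12, against 0.53 for the median bright family miR. Those SDs are of dim miRs and were not set against other miRs of like signal.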
